A study of Mus musculus with 14 samples.

Results

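The ISG15 conjugation pathway is read here from 5 genes, Isg15, Uba7, Ube2l6, Herc6 and Usp18, out of 24908 genes tested on the arrays. They were chosen by their place in the pathway, with earlier results of these data known. Their probes were found by matching each probe's transcript accession to a RefSeq gene symbol. Each of the 5 genes has 1 probe on the array. All 5 probes were well above background on 14 of 14 arrays and none was saturated, so no member was lost to the filter on dim probes.

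Both groups were mice aged 10 to 14 weeks, injected intradermally with chicken type II collagen (CII) in complete Freund's adjuvant (CFA), the first step of collagen-induced arthritis. The WT group had 7 mice and the Sting gt/gt group had 7 mice, and spleen RNA was taken 2 weeks after the injection, 1 one-colour array per mouse. Sting gt/gt mice carry the golden ticket allele (Tmem173gt), made by the mutagen ENU. The paper describes STING protein as undetectable in them by western blot. The mutation is not limited to a cell type, so the groups do not tell in which cell type STING mattered. The WT mice were bought from an outside supplier and the mutant line came from another laboratory. The paper does not name the strain of the WT mice. No mice without the injection were among the arrays, so differences between genotypes cannot be split into those present before and those after it.

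ISG15 is a small ubiquitin-like protein that is strongly induced by type I interferon and is joined to other proteins in a process called ISGylation. The joining follows the order of ubiquitin transfer: an activating enzyme (E1) passes ISG15 to a conjugating enzyme (E2), and a ligase (E3) places it on the target protein. The gene for each of these steps is itself interferon-inducible. STING is the adaptor that answers cytosolic DNA sensed by cGAS and leads to IRF3 activation and type I interferon production, which is why this pathway is read in Sting gt/gt mice.

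Interferon-stimulated genes are switched on through a promoter element bound by ISGF3 and the IRF factors. The RefSeq promoter table (GRCm38.p6) holds 4 of the 5 genes, and Usp18 has no entry. The 250 bases before each transcription start were searched on both strands for the core of that element, the interferon-stimulated response element (ISRE), as GAAA, any 2 bases and GAAA again, and for the shorter AANNGAAA, which lies within it. The 150 bases before the start are shown for the pair of genes that hold a match, with the matched letters in capitals.
Isg15, chr4:156200819-156200968, minus strand: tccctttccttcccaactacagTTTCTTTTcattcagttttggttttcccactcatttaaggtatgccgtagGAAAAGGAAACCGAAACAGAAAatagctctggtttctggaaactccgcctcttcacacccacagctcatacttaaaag
Uba7, chr9:107975417-107975566, plus strand: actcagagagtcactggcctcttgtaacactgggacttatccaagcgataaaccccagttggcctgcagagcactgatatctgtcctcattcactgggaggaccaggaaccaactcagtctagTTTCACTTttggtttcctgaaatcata

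The Isg15 promoter held 3 overlapping copies of the ISRE core, beginning 78, 72 and 66 bases before the start. Of all 32851 promoters in the table, 2.98% held the ISRE core at least once. Uba7 held the shorter motif on the opposite strand, 27 to 20 bases before its start, and AANNGAAA was found in 21.3% of all promoters. These letters were not found in the 250 bases of Ube2l6 or Herc6. A match of letters is a description of the sequence and says nothing of binding in these mice.

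All values below are the log2 processed signal of a probe after subtraction of its array's 75th percentile, so a difference of 1 is a doubling, and probes are not compared with one another. The threshold is that of the study, an unadjusted p under 0.05, and p-values adjusted over all 24908 genes are given beside it. The 75th percentile of processed signal was between 587 and 766 on the WT arrays and between 562 and 697 on the Sting gt/gt arrays. Replicates 1 to 3 of both genotypes were scanned on 1 day and replicates 4 to 7 on another, and 38.8% of all genes differed between the scan days at an adjusted p under 0.05 in limma with genotype in the model. The days are therefore also given apart.

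All 5 genes had a lower mean in Sting gt/gt mice than in WT mice, and 1 of the 5, Herc6, passed the unadjusted threshold. Across all genes tested, 45.5% had a lower mean in Sting gt/gt mice and 3.48% passed the threshold in either direction, or 1.62% counting lower genes only. The median log2 fold change of the 5 genes was -0.28, against 0.02 for all genes tested. None of the 5 passed the adjusted threshold in limma, and 1 gene of the 24908 did (0.00401%). Herc6 and Ube2l6 also stand in the study's own table of genes that differed in these samples, so their direction is not independent evidence. The same holds for Ifnar1, Irf9, Isg20, Trim25, Arih1 and Herc1, which belong to the lists read below. Over all arrays, none of these genes but Herc6 and Ifnar1 passed the unadjusted threshold. Exact permutation p-values were 0.140 for Ube2l6, 0.186 for Irf9, 0.188 for Isg20, 0.75 for Trim25, 0.336 for Arih1 and 0.0624 for Herc1.

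**Figure D1:**
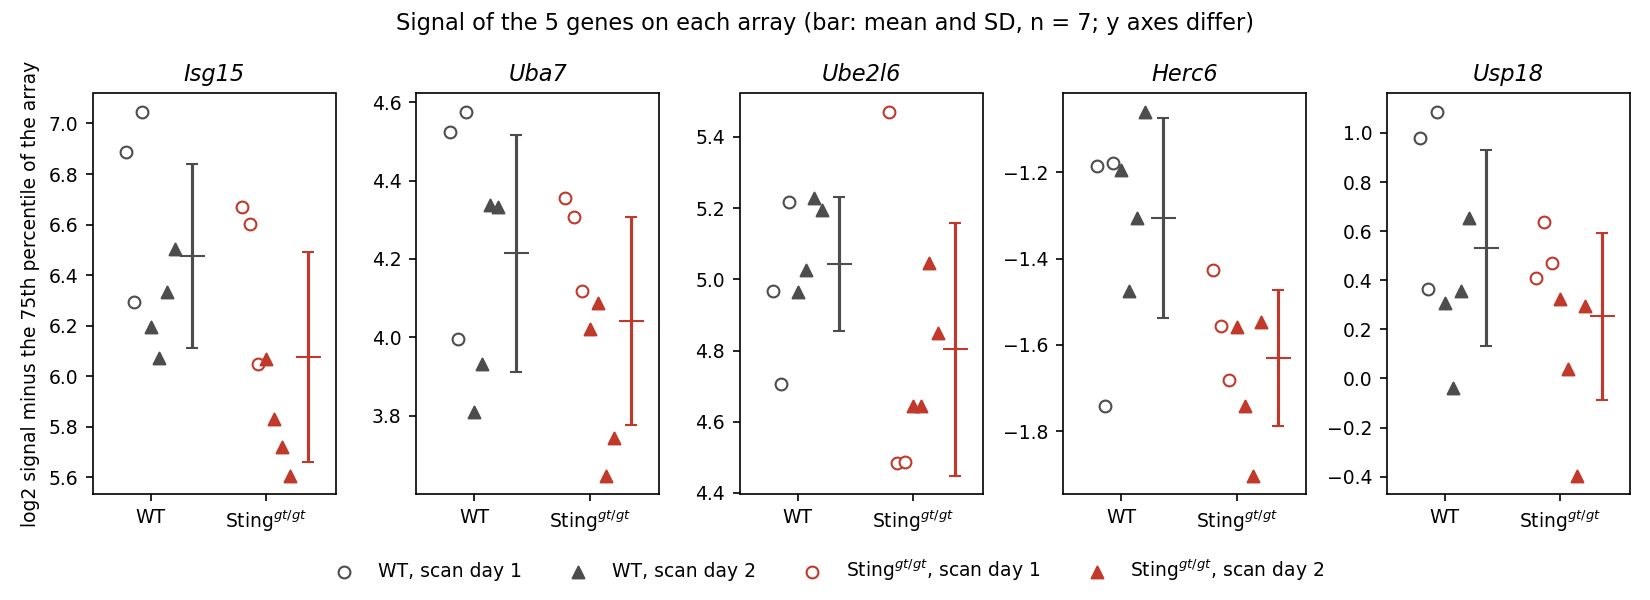
Log2 signal minus the 75th percentile of the array (vertical axis, a scale of its own for each gene) on each of the 14 arrays, by genotype. Open circles are scan day 1, filled triangles are scan day 2, and bars are the mean and SD of 7 mice. All 7 Sting gt/gt values of Herc6 lie below the WT mean, while a Sting gt/gt mouse has the highest Ube2l6 value of all.

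Isg15 encodes the modifier itself. In WT mice its lowest signal was 6.07, its median 6.33 and its highest 7.05, and in Sting gt/gt mice these were 5.61, 6.05 and 6.67. Of the 7 Sting gt/gt mice, 5 lay below the lowest WT mouse, but replicates 1 and 2, at 6.67 and 6.60, lay among the WT values. The means were 6.48 ± 0.36 (SD, n = 7) and 6.08 ± 0.42 (SD, n = 7). The mean of the mutant group was 24.1% lower, a log2 fold change of -0.40 with a standard error of 0.20. This difference did not pass the threshold (limma p = 0.0620, adjusted p = 0.9998, exact permutation p = 0.0828, two-sided over 3432 ways to part the arrays).

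Isg15 differed more between the 2 scan days than between the genotypes. With genotype in the model its signal was lower on scan day 2 than on scan day 1 (log2 change -0.55, standard error 0.14, limma adjusted p = 0.00641). With the scan day as a term, the standard error of the genotype difference was 0.14 in place of 0.20, and Isg15 passed the unadjusted threshold (limma p = 0.0118, adjusted p = 0.634, exact permutation p = 0.0229 over 1400 ways within the days). In that model 7.27% of all genes passed it. With the replicate number as a block, which carries the same split by scan day, the limma p of Isg15 was 0.0313 and 5.68% of all genes passed.

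Uba7 encodes the E1 enzyme that activates ISG15. Its WT values ran from 3.81 to 4.58 with a median of 4.33, and the mutant values from 3.65 to 4.36 with a median of 4.09. The groups overlapped over most of their range, although 6 of 7 Sting gt/gt mice were below the WT median. The means were 4.22 ± 0.30 (SD, n = 7) and 4.04 ± 0.27 (SD, n = 7). The difference of -0.17 had a standard error of 0.15 and did not pass the threshold with or without the scan day in the model (limma p = 0.181 and 0.266, exact permutation p = 0.184 within the days and 0.266 over all arrays). Uba7 had the smallest difference of the 5 genes.

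Ube2l6 encodes the E2 enzyme, also called UbcH8, to which Uba7 hands ISG15. Its WT values ran from 4.70 to 5.23 with a median of 5.03, and the mutant values from 4.48 to 5.47 with a median of 4.65. In the mutant group 4 mice lay below every WT mouse, while replicate 1, at 5.47, lay above every WT mouse. The means were 5.04 ± 0.19 (SD, n = 7) and 4.80 ± 0.36 (SD, n = 7), and the difference was -0.24 with a standard error of 0.15 (limma p = 0.134, exact permutation p = 0.140). That array decided the call: without Sting gt/gt replicate 1 the difference was -0.35 and passed the unadjusted threshold (limma p = 0.0118, adjusted p = 0.513, exact permutation p = 0.0140).

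Herc6 encodes the main ISG15 E3 ligase of the mouse, which fills the role that HERC5 has in human cells. Its WT values were -1.19, -1.74, -1.18, -1.19, -1.47, -1.31 and -1.06 in replicates 1 to 7. Its Sting gt/gt values were -1.43, -1.56, -1.68, -1.56, -1.74, -1.90 and -1.55. All 7 mutant mice were below the WT mean and the WT median, and the groups met only at WT replicate 2, at -1.74, and WT replicate 5, at -1.47. The means were -1.31 ± 0.23 (SD, n = 7) and -1.63 ± 0.16 (SD, n = 7).

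Herc6 was lower by 20.1% in Sting gt/gt mice, a log2 fold change of -0.32 with a standard error of 0.12. It passed the unadjusted threshold (limma p = 0.0131, exact permutation p = 0.0105) and not the adjusted one (limma adjusted p = 0.9998). It had the smallest spread between mice of the same group among the 5 genes, with an SD of 0.20 against a median of 0.31 over all genes. The SDs of the other 4 genes were between 0.28 and 0.39. Herc6 differed little between the scan days (log2 change -0.01, standard error 0.11), and it remained past the unadjusted threshold with the scan day in the model (limma p = 0.0116, exact permutation p = 0.0157 within the days). With slide as a fixed or random block its difference was -0.14 and -0.25, and neither passed.

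Usp18 encodes the protease that removes ISG15 from its targets, and its protein also binds the interferon receptor and restrains its signalling. Its WT values ran from -0.04 to 1.09 with a median of 0.37, and the mutant values from -0.40 to 0.64 with a median of 0.32. The medians were close. The highest values were those of WT replicates 1 and 3, at 0.98 and 1.09, and the lowest was that of Sting gt/gt replicate 6. The means were 0.53 ± 0.40 (SD, n = 7) and 0.25 ± 0.34 (SD, n = 7), a difference of -0.28 with a standard error of 0.19 (limma p = 0.163, exact permutation p = 0.199). Usp18 was lower on scan day 2 (log2 change -0.46, standard error 0.15, limma adjusted p = 0.0222), and with the scan day in the model the genotype difference had a limma p of 0.0783.

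The gene that carries the mutation, Sting1, had means of 2.61 ± 0.17 (SD, n = 7) in WT and 2.64 ± 0.10 (SD, n = 7) in Sting gt/gt mice, a log2 fold change of 0.04 with a standard error of 0.10. The sign of this small difference turned with no scaling between arrays, where it was -0.02, and on scan day 1 alone, where it was -0.05. The golden ticket allele is a point mutation, so the level of its transcript does not check the genotype of a mouse.

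Read within each scan day, all 5 genes were lower in Sting gt/gt mice on both days, as were 17.1% of all genes. On scan day 1, with 3 mice per genotype, the log2 fold changes were -0.30 for Isg15, -0.10 for Uba7, -0.15 for Ube2l6, -0.19 for Herc6 and -0.31 for Usp18. The groups overlapped for each gene, and none of the 5 passed the unadjusted threshold, which 3.86% of all genes did. Exact permutation p-values were between 0.40 and 0.80, where 3 against 3 mice cannot go below 0.10. WT replicate 2 was the lowest WT mouse of that day for each of the 5 genes.

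On scan day 2, with 4 mice per genotype, 3 of the 5 genes passed the unadjusted threshold, all lower in Sting gt/gt mice, where 23.3% of all genes passed it and 12.3% passed it as lower. Isg15 lay between 6.07 and 6.50 in WT and between 5.61 and 6.07 in Sting gt/gt mice. Its log2 fold change was -0.47 with a standard error of 0.14 (limma p = 0.00706, adjusted p = 0.0943, exact permutation p = 0.0286). Herc6 lay between -1.47 and -1.06 in WT and between -1.90 and -1.55 in the mutants. Its log2 fold change was -0.43 with a standard error of 0.13 (limma p = 0.00826, adjusted p = 0.0998, exact permutation p = 0.0286). In both genes the groups did not overlap, although for Isg15 the nearest mice were only 0.0058 apart. Of all genes, 7.43% were below the WT group without overlap on that day.

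An exact permutation p of 0.0286 is the smallest that 4 against 4 mice allow. Ube2l6 was also lower on that day, with groups that overlapped (log2 fold change -0.31, standard error 0.12, limma p = 0.0345, adjusted p = 0.181, exact permutation p = 0.0857). Uba7 and Usp18 had log2 fold changes of -0.23 and -0.26 and did not pass the threshold. The genotype difference was not shown to differ between the days for any of the 5 genes. The interaction of genotype and scan day ran from -0.24 for Herc6 to 0.05 for Usp18, with limma p-values from 0.293 to 0.870, where 18% of all genes had an interaction past the unadjusted threshold.

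Slides matter for the same comparison. On scan day 2 the 4 Sting gt/gt arrays shared 1 slide and the WT arrays lay on 2 others, so slide and genotype cannot be told apart there. On scan day 1, slide 1 held WT replicates 1 and 2 and Sting gt/gt replicate 1, and slide 2 held WT replicate 3 and Sting gt/gt replicate 2. On slide 2 all 5 genes were lower in the mutant mouse, by -0.27 for Uba7 to -0.73 for Ube2l6 on the log2 scale. On slide 1 only Usp18 was lower in the mutant mouse, at -0.26, and the other 4 genes differed by 0.04 to 0.64 in the opposite direction.

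**Figure D2:**
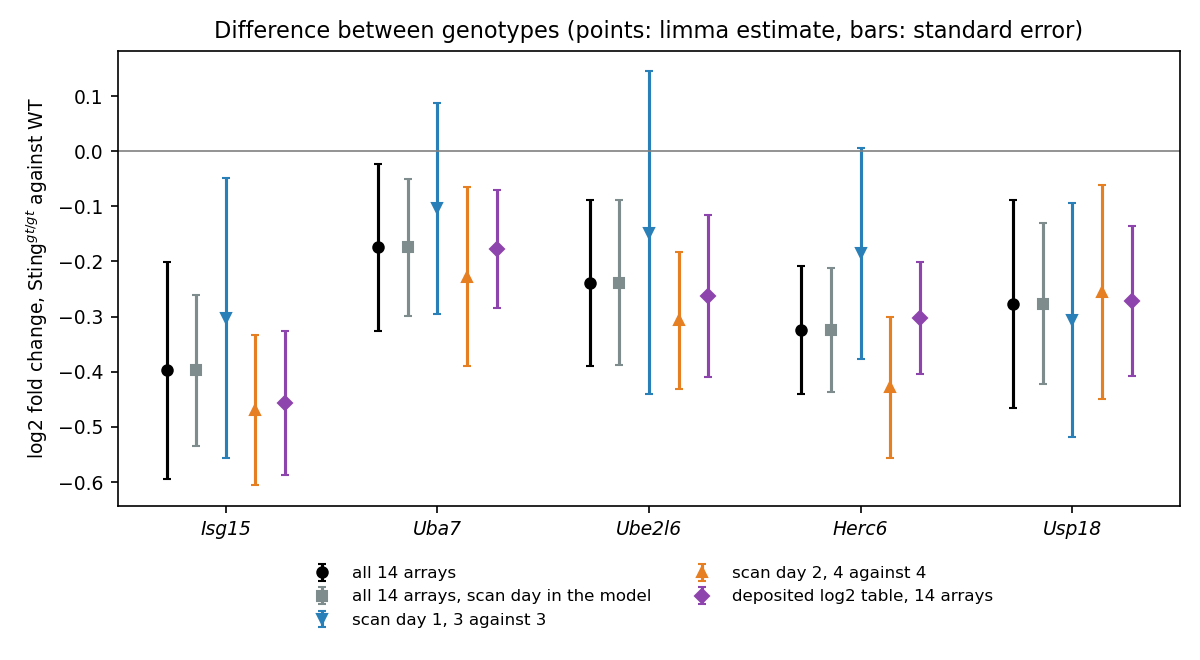
Log2 fold change of Sting gt/gt against WT mice for each gene (limma estimate, bars are the standard error), over all 14 arrays, with the scan day in the model, within each scan day and in the deposited log2 table. All estimates lie below 0, from -0.10 to -0.47, and the bars of Uba7, Ube2l6 and Herc6 on scan day 1 cross 0.

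The deposited table of log2 values, which the authors processed in a way its text does not name, gave the same signs. In it Isg15 was 15.8 ± 0.28 (SD, n = 7) in WT and 15.4 ± 0.22 (SD, n = 7) in Sting gt/gt mice, a log2 fold change of -0.46 with a standard error of 0.13 (limma p = 0.00326, adjusted p = 0.465, exact permutation p = 0.00699). Herc6 changed by -0.30 with a standard error of 0.10 (limma p = 0.00926, adjusted p = 0.514, exact permutation p = 0.0134). The log2 fold changes of Ube2l6, Usp18 and Uba7 were -0.26, -0.27 and -0.18 and did not pass the threshold, with limma p-values of 0.0953, 0.0635 and 0.119. Of all genes, 7.74% passed in the deposited values, against 2 of the 5 genes.

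Across mice, the closest relations were those among Isg15, Uba7 and Usp18. Over the 10 pairs of genes and 14 arrays, Isg15 and Uba7 were correlated most closely (r = 0.888, permutation p = 0.0004 adjusted over the 10 pairs, rho = 0.842, adjusted permutation p = 0.0016). Isg15 and Usp18 had an r of 0.837 (adjusted permutation p = 0.0006, rho = 0.815 with adjusted permutation p = 0.00233), and Uba7 and Usp18 an r of 0.828 (adjusted permutation p = 0.0006, rho = 0.837 with adjusted permutation p = 0.0016). Over the 14 pooled arrays the signals of the modifier, its activating enzyme and its protease rose and fell together. These 3 genes also showed the largest shifts between scan days, and the pooled r includes those shifts. So do the pooled permutation p-values, for which arrays were permuted across days and genotypes.

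For Isg15 and Uba7, r was 0.924 over 6 arrays of scan day 1 and 0.772 over 8 arrays of scan day 2, and 0.811 without the 2 arrays farthest from the median of Isg15. For Isg15 and Usp18 the same 3 values were 0.811, 0.662 and 0.683, and for Uba7 and Usp18 they were 0.865, 0.654 and 0.689. None of these 3 pairs passed within a day, with adjusted permutation p-values of 0.0602, 0.104 and 0.0889 on scan day 1 and 0.0923, 0.147 and 0.147 on the other. After the mean of each genotype and day was removed, r was 0.815 for Isg15 and Uba7, 0.641 for Isg15 and Usp18, and 0.692 for Uba7 and Usp18.

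Herc6 followed Usp18 (r = 0.687, adjusted permutation p = 0.0150, rho = 0.596 with adjusted permutation p = 0.0496) and Isg15 (r = 0.667, adjusted permutation p = 0.0199, rho = 0.701 with adjusted permutation p = 0.0170). Here the days taken apart gave closer relations than the pooled arrays. Herc6 and Usp18 had an r of 0.879 on scan day 1 and 0.849 on scan day 2, and 0.891 within genotype and day. For Herc6 and Isg15 these were 0.926, 0.844 and 0.766. Without the 2 arrays farthest from the median, r was 0.551 for Herc6 and Usp18 and 0.534 for Isg15 and Herc6. The adjusted permutation p-values were 0.125 for both, so neither pair passed without those arrays. Fewer arrays also make a call harder to reach. The pairs of Isg15, Uba7 and Usp18 still passed, with adjusted permutation p-values of 0.0164 to 0.0410.

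Ube2l6 gave the 3 lowest correlations of the 10 pairs, 0.382 with Isg15, 0.289 with Uba7 and 0.097 with Usp18, with adjusted permutation p-values of 0.222, 0.349 and 0.742. Its r with Herc6 was 0.540 (adjusted permutation p = 0.0680, rho = 0.574 with adjusted permutation p = 0.0499), and 0.632 without the 2 arrays farthest from the median (adjusted permutation p = 0.0772). Its r with Isg15 was 0.651 within scan day 1 and 0.559 within the other day. Uba7 and Herc6 had an r of 0.593 (adjusted permutation p = 0.0453, rho = 0.587 with adjusted permutation p = 0.0496), which came to 0.975 on scan day 1, 0.567 on scan day 2 and 0.373 without the 2 arrays farthest from the median, so it rests on those arrays.

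**Figure D3:**
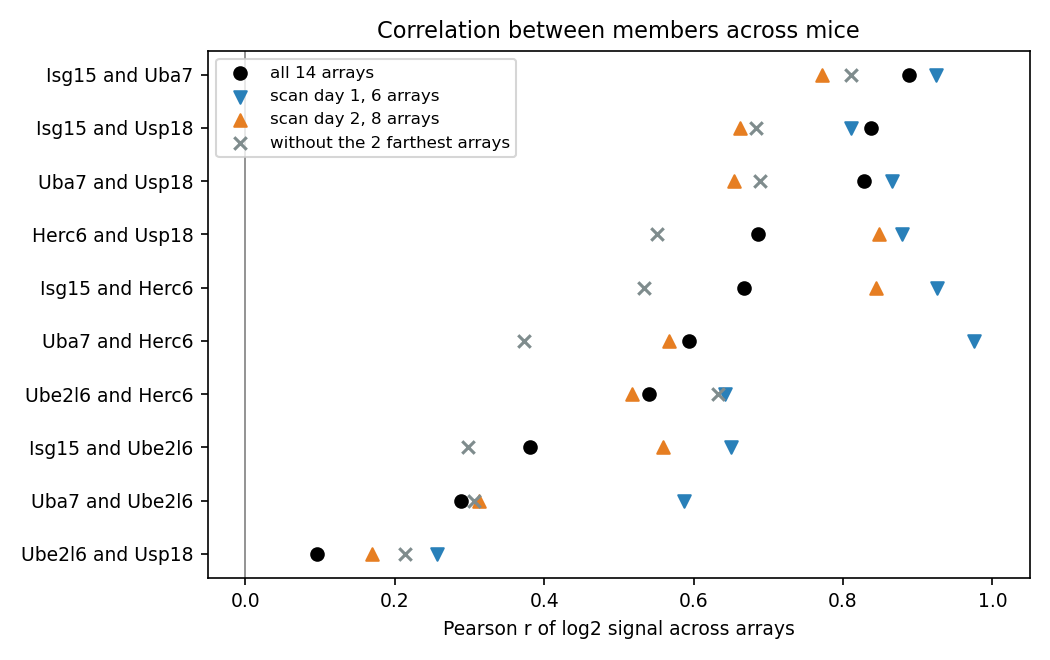
Pearson r of log2 signal (horizontal axis) for the 10 pairs of genes (vertical axis), over all 14 arrays, within each scan day, and without the 2 arrays farthest from the median of the first gene. The 3 pairs of Isg15, Uba7 and Usp18 stand at the top, between 0.828 and 0.888 over all arrays, and 3 of the 4 pairs that hold Ube2l6 stand at the bottom.

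After the mean of each scan day was subtracted, the mean of the 5 genes was highest in WT replicates 7, 3, 6 and 1, at 0.38, 0.35, 0.25 and 0.24. It was lowest in Sting gt/gt replicates 6 and 3, at -0.32 and -0.31, followed by WT replicate 2 at -0.27. Sting gt/gt replicate 1, at 0.10, was the only mutant mouse above its day's mean. Its value came from Ube2l6, which was 0.58 above the day's mean, while its Usp18 was 0.25 below it.

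**Figure D4:**
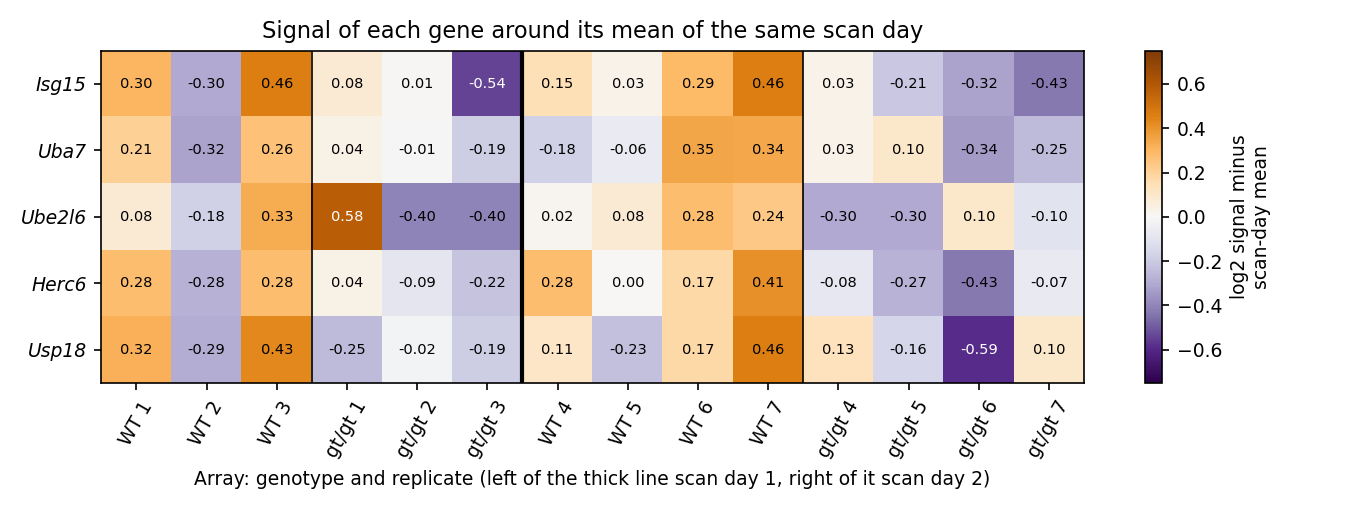
Log2 signal of each gene (rows) on each array (columns) after its mean of the same scan day was subtracted, with the value printed in each cell. Orange is above and purple is below the day's mean. WT replicates 1, 3, 6 and 7 are orange in every row, WT replicate 2 is purple in all 5, and Ube2l6 of Sting gt/gt replicate 1 stands out at 0.58.

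By the same day-centred measure, the 8 named genes most like the mean of the 5 genes over 14 arrays, out of 14719 genes with a symbol, were Mitd1 (r = 0.921), Oas3 (0.906), Eif5 (0.889), Gm5136 (0.884), Cmpk2 (0.882), Dnajb2 (0.874), Ssh1 (0.867) and Slc1a5 (0.859). Oas3, a sensor enzyme of double-stranded RNA, and Cmpk2, a mitochondrial nucleotide kinase, are interferon-stimulated genes on the list described next. These correlations come from the best of many genes and are given as a description. Only the scan-day mean was removed, so differences between genotypes or slides remain in each r. All 8 genes were lower in Sting gt/gt mice on both days, as were 17.1% of all genes tested. The part of this shared direction in each r was not tested. Of the 38 interferon-stimulated genes, 5 (13.2%) were among the 100 genes most alike out of 14719. The median r of the 38 was 0.32 against -0.06 for all genes.

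The wider type I interferon response was read from 40 genes, of which 38 were tested. Mx1 and Mx2 had no probe whose accession matched. The mutant group had the lower mean for 29 and the higher mean for 9. The median difference was -0.07 on the log2 scale against -0.28 for the 5 pathway genes, and 1 of 38 passed the unadjusted threshold, which 3.48% of all genes did. The list's median ran from -0.131 to -0.00117 over the arrays left out in turn, and it was -0.27 with slide as a fixed block. The 1 gene that passed, Parp14, a mono-ADP-ribosyltransferase, is named here after its value was seen. It changed by -0.28 with a standard error of 0.10 (limma p = 0.0134, adjusted p = 0.9998, exact permutation p = 0.00350). On scan day 1 the list's median was -0.20 with 33 of 38 genes lower, close to the -0.19 of the 5 genes. On scan day 2 it was -0.03 with 22 of 38 lower, where the median of the 5 genes was -0.31.

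The members differed in how they tracked this list. Usp18 had an r of 0.660 with the mean of the 38 genes over 14 arrays (permutation p = 0.0591 adjusted over 6 genes, rho = 0.538 with adjusted permutation p = 0.300), with 0.873 on scan day 1, 0.729 on scan day 2 and 0.755 without the 2 arrays farthest from the median. Herc6 (r = 0.489) and Uba7 (r = 0.485) followed with adjusted permutation p-values of 0.157 for both, and Isg15 had an r of 0.298. For Ube2l6 it was -0.072 and for Sting1 0.074. None of the 6 passed at an adjusted p under 0.05.

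Upstream of the pathway, 7 genes of the interferon receptor and of ISGF3, the transcription factor it activates, were tested. Of these, 5 were lower and 2 higher, with a median of -0.10. The unadjusted threshold was passed by 1 of 7, Ifnar1, and by 3.48% of all genes. Ifnar1 stands in the study's own table, so its direction is not independent evidence. The list's median ran from -0.137 to -0.00484 over the arrays left out in turn. Ifnar1, a receptor chain for type I interferon, was 3.29 ± 0.09 (SD, n = 7) in WT and 3.05 ± 0.18 (SD, n = 7) in Sting gt/gt mice. Its log2 fold change was -0.24 with a standard error of 0.10 (limma p = 0.0251, adjusted p = 0.9998, exact permutation p = 0.00466). On scan day 1 its log2 fold change was -0.13, and on the other day it was -0.32. Without Sting gt/gt replicate 5 it was -0.18 and lost the call in limma (p = 0.0541), while the exact permutation p was 0.00874. It did not pass on scan day 1 alone, and the call was also lost with the mean of all its probes, at -0.14, and with slide as a fixed or random block, at -0.14 and -0.19. Ifnar2, the other receptor chain and the one that USP18 binds, differed by 0.01 on the log2 scale, with a standard error of 0.08. Of the ISGF3 genes, Stat2 and Irf9 had log2 fold changes of -0.06 and -0.10, and neither passed.

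Of 26 partners that modify, bind or carry ISG15, 24 were tested. Usp13 was not well above background on any array, and Mx1 had no matched probe. There were 13 lower and 11 higher, with a median of -0.01 and none past the unadjusted threshold. There were 16 lower of 24 on scan day 1 and 10 on the other day. On scan day 2 alone 5 of 24 passed, where 23.3% of all genes did. They are named here after their values were seen: Usp2, Usp5 and Itgal were higher, by 0.69, 0.31 and 0.42 on the log2 scale, and Arih1 and Skp2 were lower, with log2 fold changes of -0.23 and -0.23. The same genes on scan day 1 differed by -0.24 for Usp2, -0.11 for Usp5, -0.20 for Itgal, 0.03 for Arih1 and -0.04 for Skp2, and none passed.

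Enzymes and modifiers of the sister pathways (ubiquitin, NEDD8, SUMO, UFM1, URM1 and the ATG conjugation system) gave 23 higher and 13 lower of 36 tested, with a median of 0.05 and none past the unadjusted threshold in limma. With no scaling between arrays the split was 16 higher and 20 lower and the median -0.01. With the scan day as a term 3 of the 36 passed, 2 of them higher, where 7.27% of all genes passed. The closest relative of each enzyme differed by less than its standard error. Uba1, the E1 of ubiquitin, differed by -0.02 with a standard error of 0.12 on the log2 scale. Ube2l3, an E2 of the same family as Ube2l6, differed by 0.04 with a standard error of 0.10, and Herc3, a ligase of the family of Herc6, by 0.11 with a standard error of 0.16. The sign of each turned on a scan day taken alone, to 0.09 for Uba1 and -0.01 for Herc3 on day 2 and to -0.08 for Ube2l3 on day 1, and that of Ube2l3 also with no scaling, at -0.01.

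**Figure D5:**
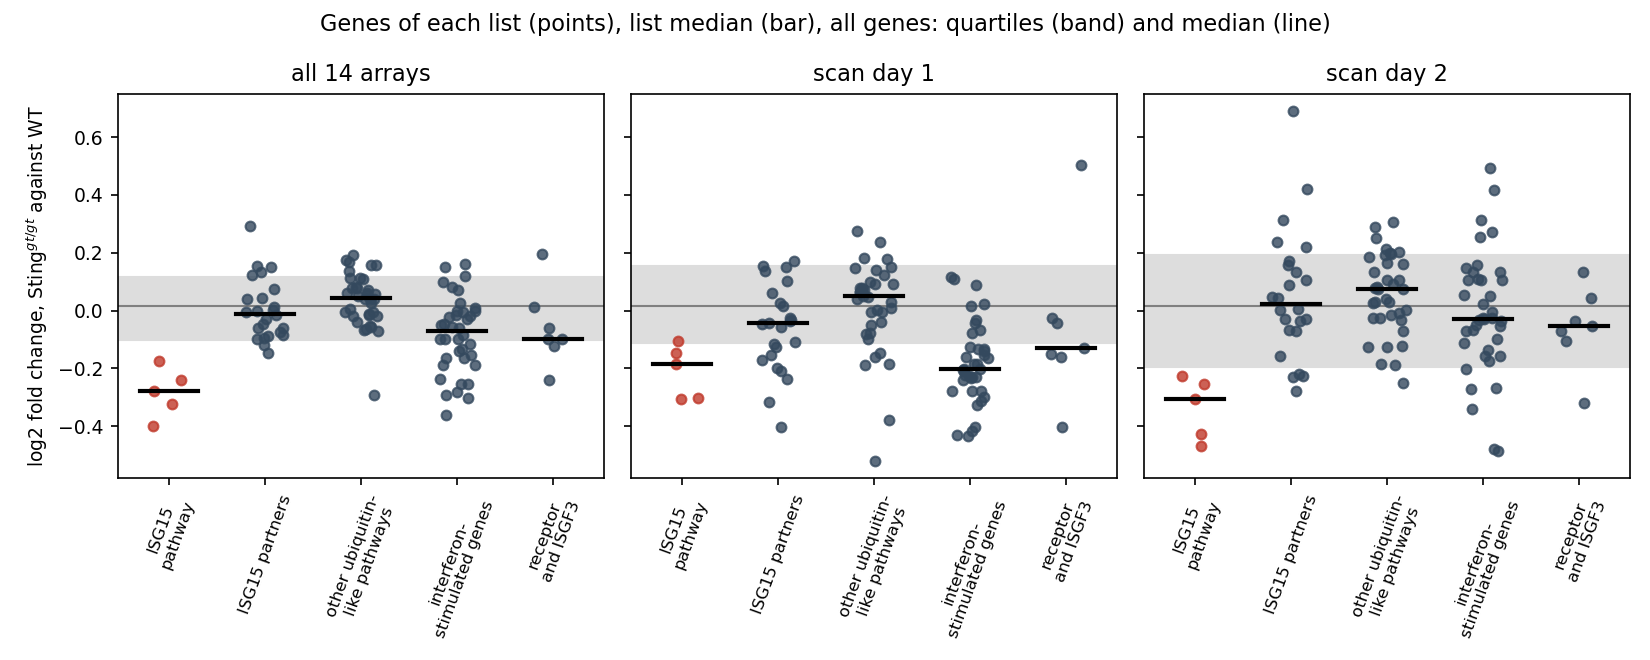
Log2 fold change of Sting gt/gt against WT mice (vertical axis) for each tested gene of the ISG15 pathway (red) and of 4 other lists (dark), over all 14 arrays and within each scan day. Black bars are list medians, and the grey band and line are the quartiles and median of all genes. The 5 pathway genes lie below the median of all genes in each panel, while the interferon-stimulated genes have a median of -0.20 on scan day 1 and -0.03 on scan day 2.

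Spleen holds many cell types, and in bulk RNA fewer cells of a type and less RNA per cell cannot be told apart. Markers of 9 cell types were read beside the pathway genes, and 44 of 45 were tested, including all those of B cells and T cells that a spleen should hold. Ly6g, of neutrophils, had no matched probe. On scan day 2, where Isg15, Herc6 and Ube2l6 passed the threshold, all 5 of 5 B cell markers were lower in Sting gt/gt mice and passed it, against 23.3% of all genes past it and 12.3% past it as lower. The mean signal of these markers was 2.23 to 2.78 in WT and 1.91 to 2.15 in Sting gt/gt mice on that day. On scan day 1 the same list went the other way, with 1.93 to 2.18 in WT and 2.17 to 2.64 in mutant mice, and 0 of 5 passed. The 5 pathway genes were lower on both days, and 0 of 5 passed on scan day 1.

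Erythroid markers were lower on scan day 2 for 3 of 5 genes past the threshold, with mean signals of 5.54 to 5.88 in WT and 5.22 to 5.44 in Sting gt/gt mice. Plasma cell markers were higher past the threshold for 3 of 5 genes on that day, with mean signals of 1.35 to 1.67 in WT and 1.69 to 2.04 in Sting gt/gt mice. The other 2, Prdm1 and Irf4, differed by -0.28 and -0.16. On that day 23.3% of all genes passed, which holds for both lists. The share passing as lower, 12.3%, stands beside the erythroid calls. Beside the plasma cell calls, 2743 of 24908 genes passed as higher. The mean of the plasma cell list differed by -0.12 on the first scan day. The list means of the 9 cell types differed by -0.23 to 0.17 between genotypes, with exact permutation p-values from 0.199 to 0.879. For plasmacytoid dendritic cells, known as strong makers of type I interferon, the mean signal was 1.66 to 2.20 in WT and 1.76 to 2.27 in Sting gt/gt mice. The part of these markers in the pathway's differences was not tested.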

How the data were processed

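Splenocyte RNA was hybridised to 14 one-colour Agilent arrays, 1 per mouse. Spot intensity was extracted by the authors with Agilent Feature Extraction 11.0.1.1, and the deposited processed intensity is background-corrected and not normalised between arrays. The authors also deposited a table of log2 values, whose scale is log2 and whose normalisation is not given in the sources used here. Its column medians were 5.49 to 5.52, and it correlated with the log2 intensity of the same array at 0.997 to 0.999.

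Here log2 intensity minus the 75th percentile of each array was used. Flagged outlier spots were left out, and probes well above background on at least 7 arrays were kept, which left 31766 probes. The brightest probe stood for a gene. Of 56605 probes, 32994 (58.3%) matched a RefSeq symbol. Genotypes were compared by limma 3.58.1 (R 4.3.3) across all genes with Benjamini-Hochberg adjustment, and by two-sided exact permutation tests. Correlations used 100000 permutations over 14 arrays, made across scan days and genotypes, and exact permutations within days. The fits were tested on simulated data. The outcome is not given here, so nothing is drawn from it about slides or about differences as small as those of the pathway genes. The number of arrays limits the precision. The p-values judge a difference against the variation between arrays. No mouse had repeat arrays, so that variation mixes mouse and slide, and also scan day where it is not in the model. Where the genotypes lay on separate slides, a slide difference can be part of the genotype difference.

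The named genes are the 5 members, Sting1, genes of the partner, ubiquitin-like and receptor lists past an unadjusted p under 0.05, the nearest relative of each enzyme and the 8 genes most alike. Genes of the lists that stand in the study's own table are also named. Members and lists were chosen with earlier results of these data known.

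Same-numbered mice of the genotypes deviated together (r = 0.156 to 0.533), and after the scan-day means were removed r was -0.408 to 0.248, so the pairing comes with the scan day. Alternatives covered scaling, background correction, the deposited table, filters, probes, the methods' t-test, array weights, scan day, slide, replicate block and leaving out each array. Some genes of the lists are not reported here by name.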

Additional observations from a re-analysis of the deposited data

How the results depend on the processing

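Over 30 alternatives, Isg15, Uba7, Herc6 and Usp18 stayed lower in Sting gt/gt mice in each, and Ube2l6 in 29. Herc6 passed the unadjusted threshold in 27, Isg15 in 12, Ube2l6 in 3, and Uba7 and Usp18 in none. These alternatives are not independent of one another. Of the 30, 14 leave out 1 array and share most arrays, and Herc6 passed in all 14. The settings for filter, flags, probes, t-test, scan day and replicate block gave the main fold change again for each gene. Each gene has 1 probe, and the genotypes are balanced over days and replicates. With slide as a fixed or random block none of the 5 genes passed. The lowest adjusted p of any of the 5 genes was 0.0943, for Isg15 on scan day 2. The cause of each change below was not tested.

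Isg15 passed at log2 fold changes of -0.44 with quantile normalisation, -0.41 with median centring, -0.45 with no scaling, -0.41 with normexp, -0.46 in the deposited table, -0.38 with array weights, -0.40 with the scan day or the replicate block as a term, and -0.47 on scan day 2. Leaving out each array gave -0.50 to -0.30, and it passed without WT replicate 5 or Sting gt/gt replicates 1 or 2. With slide as a fixed or random block it was -0.15 and -0.26 and did not pass. Ube2l6 passed at -0.29 with array weights and at -0.31 on scan day 2, and turned to 0.0495 with slide as a fixed block, which rests on the 5 arrays of the 2 slides that hold both genotypes. Leaving out each array gave -0.35 to -0.19. Herc6 no longer passed at -0.14 with slide as a fixed block, -0.25 with slide as a random block and -0.19 on scan day 1, and ran from -0.40 to -0.28 over the arrays left out. With normexp it was -0.21 and passed. Uba7 ran from -0.24 to -0.11, with -0.0593 under slide as a fixed block, and Usp18 from -0.37 to -0.17.

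The number of the 5 genes past the threshold was 2 with quantile, median or no scaling, normexp, the deposited table, the scan day or the replicate block, 3 with array weights and on scan day 2, 0 with slide as a fixed or random block and on scan day 1, and 1 to 3 over the arrays left out (2 without WT replicate 5 or Sting gt/gt replicate 2, and 3 when replicate 1 of the mutants was left out). Over all genes 868 passed, and 1928 in the deposited table, 4310 with array weights, 1812 with the scan day, 1416 with the replicate block, 445 with slide as a random block, 5805 on scan day 2 and 496 to 1967 over the arrays left out, where leaving out Sting gt/gt replicates 1, 5 and 6 gave 1967, 539 and 496. Of the calls 46.5% were lower in Sting gt/gt mice, against 69.4% with median centring, 80.5% with no scaling and 36.1% with normexp.

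Of 24 partner genes, 3 passed the threshold with array weights, 1 with slide fixed and 5 on scan day 2. Of 36 ubiquitin-like genes, 1 passed with quantile, no scaling, the methods' t-test, slide fixed, slide random and scan day 1, and 2 with normexp. There were 4 in the deposited table and on scan day 2, 5 with array weights, 3 with the scan day, and 0 to 2 over the arrays left out. Of 38 interferon-stimulated genes, 0 passed with the mean of probes and on scan day 1, 4 with array weights and 2 with slide fixed. There were 6 on scan day 2, 3 higher and 3 lower, and 1 to 3 over the arrays left out. Of 7 receptor and ISGF3 genes, 0 passed with the mean of probes, slide random and scan day 1, and 0 to 1 over the arrays left out. Of all genes, 17.3% passed with array weights, 23.3% on scan day 2, 7.27% with the scan day and 7.74% in the deposited table. The share was 3.6% with slide fixed, 1.79% with slide random and 3.86% on scan day 1. It was 3.81% with quantile, 3.28% with median centring, 3.06% with no scaling, 3.17% with normexp and 4% with the methods' t-test.

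The sign of near-zero values turned for Sting1 (-0.0186 with no scaling, -0.0904 slide fixed, -0.0105 slide random, -0.0477 on scan day 1, and -0.00701 to 0.0758 over the arrays left out), for Uba1 (0.00447 with the mean of probes, 0.0910 on scan day 2, and -0.0668 to 0.0231 over the arrays left out), for Ube2l3 (-0.0131 with no scaling, -0.0013 slide fixed, -0.0824 on scan day 1) and for Herc3 (-0.0100 on scan day 2). The r of Ube2l6 and Usp18 turned to -0.0117 with quantile normalisation and ran from -0.0600 to 0.21 over the arrays left out. Without Sting gt/gt replicate 6 the r of Herc6 was 0.598 with Isg15 and 0.564 with Usp18, and neither passed after adjustment.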
